A study of Mus musculus with 9 samples.

Results

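The genes described here are the Eya family (Eya1, Eya2, Eya3 and Eya4) and Six4, members of a gene network best known from the development of eye, ear, kidney and muscle. All 5 listed genes had a probe set, 1 each, among the 17731 genes measured, and where a gene has several, the one with the highest mean over the 9 arrays stands for it. The family was chosen by a measured value, the low level of Eya1 in both IDH1 groups against control. Its values in those 2 comparisons are therefore given as a description, without a p-value. The other members were included for their family and not for their values.

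The study had 3 groups of 3 arrays, all made from sorted, GFP-positive marrow cells of C57BL6 background. In all 3 groups the cells were bone marrow cells immortalised with HoxA9 and transduced with a retroviral vector. They were transplanted into irradiated mice of the same strain, and marrow was taken 4 weeks later. CTL cells carried the EGFP vector without insert. IDH1wt cells carried pSF91 with IDH1 in its wild-type form, and IDH1mut cells pSF91 with a mutant IDH1. The labels name neither the mutation, the promoter of the vector, the age of the mice nor the number of mice or clones behind each array. Nothing says that replicates came from separate mice, so the p-values measure only the spread between these arrays, which may be technical. IDH1 is the cytosolic isocitrate dehydrogenase, whose cancer mutants make 2-hydroxyglutarate, an inhibitor of 2-oxoglutarate-dependent enzymes.

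EYA proteins do not bind DNA themselves. They are carried to target genes by homeodomain proteins such as SIX4, act there as transcriptional coactivators, and also have protein phosphatase activity of their own, which in DNA repair acts on the histone variant H2AX. PAX factors act upstream in the same network, and DACH proteins are partners that can turn these complexes into repressors. In blood, Eya1 is known as a gene activated by MLL fusion oncoproteins, which also raise HoxA9.

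The values were log2 expression values normalised with RMA. Array medians lay between 4.65 and 4.72 and lower quartiles between 3.25 and 3.36, which places the members' values on the scale. No detection call comes with RMA values, and RMA shrinks differences between dim probe sets. Correlations between arrays ran from 0.992 to 0.997 within groups and from 0.982 to 0.992 between groups. All 10 white blood cell markers on the list were measured, and 0 of them had a mean below the lower quartile. "Rose" and "fell" mark an adjusted p under 0.05 in limma, with Benjamini-Hochberg adjustment over the 17731 genes. Differences are of mean log2 values, ± SE, with n = 3 against 3. Where a count at an unadjusted p under 0.05 is given, the share of all genes at that threshold was not counted. Such a count says nothing about a list as a set.

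Upstream sequence for the members was found in RefSeq for Eya3, Eya4 and Six4, and 1 window each is shown for Eya4 and Eya3. Eya4 was the member besides Eya1 that differed between groups, and Eya3 the one that lay above the array medians on all 9 arrays. Each window holds the 250 bases before a start listed by RefSeq on GRCm38.p6, with CG dinucleotides in capitals. The Eya4 window is on the minus strand at chr10:23349944-23350193; the RefSeq gene model reaches further upstream, so other transcripts start before it. RefSeq lists a second Eya4 start whose window, at chr10:23349891-23350140, overlaps the one shown. The Eya3 window is on the plus strand at chr4:132638796-132639045.
Eya4: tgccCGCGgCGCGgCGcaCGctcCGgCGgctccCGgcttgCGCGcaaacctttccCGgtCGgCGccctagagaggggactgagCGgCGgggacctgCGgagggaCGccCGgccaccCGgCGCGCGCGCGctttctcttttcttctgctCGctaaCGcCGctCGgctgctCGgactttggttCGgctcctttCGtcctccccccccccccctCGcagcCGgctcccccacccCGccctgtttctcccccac
Eya3: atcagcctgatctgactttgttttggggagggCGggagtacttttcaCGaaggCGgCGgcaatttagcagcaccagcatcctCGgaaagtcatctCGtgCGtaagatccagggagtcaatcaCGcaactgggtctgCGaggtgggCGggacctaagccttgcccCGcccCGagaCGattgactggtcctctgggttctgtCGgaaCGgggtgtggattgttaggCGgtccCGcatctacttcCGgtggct
The Eya4 window shown held 35 CG dinucleotides, more than or as many as 97.4% of the 32841 such windows in the table. The overlapping Eya4 window held 25 (90.4%), and the Eya3 window held 18 (80.3%), against a median of 6. The letters TGACAG (the core of MEIS sites) and TGATTNAT (HOX with PBX), searched on both strands, were absent from these 3 windows. They occurred in 15.9% and 2.83% of all windows. DNA methylation and factor binding were not measured in this series.

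Eya1 was high on the 3 CTL arrays and low on the 6 arrays with an IDH1 vector. It read 6.53, 5.95 and 6.52 on CTL replicates 1, 2 and 3. On the IDH1wt arrays it read 3.67, 4.10 and 3.83, and on the IDH1mut arrays 3.66, 4.50 and 4.17. Neither IDH1 group overlapped CTL, the pattern for which the family was chosen, and the 2 IDH1 groups overlapped each other. Over all genes, arrays did not overlap for 37.8% in IDH1mut against CTL and for 23.6% in IDH1wt against CTL. All 6 arrays with IDH1 lay below the array medians and above the lower quartiles. The group means were 6.33 ± 0.33 (SD, n = 3) in CTL, 3.86 ± 0.22 with IDH1wt and 4.11 ± 0.42 with IDH1mut.

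**Figure D1:**
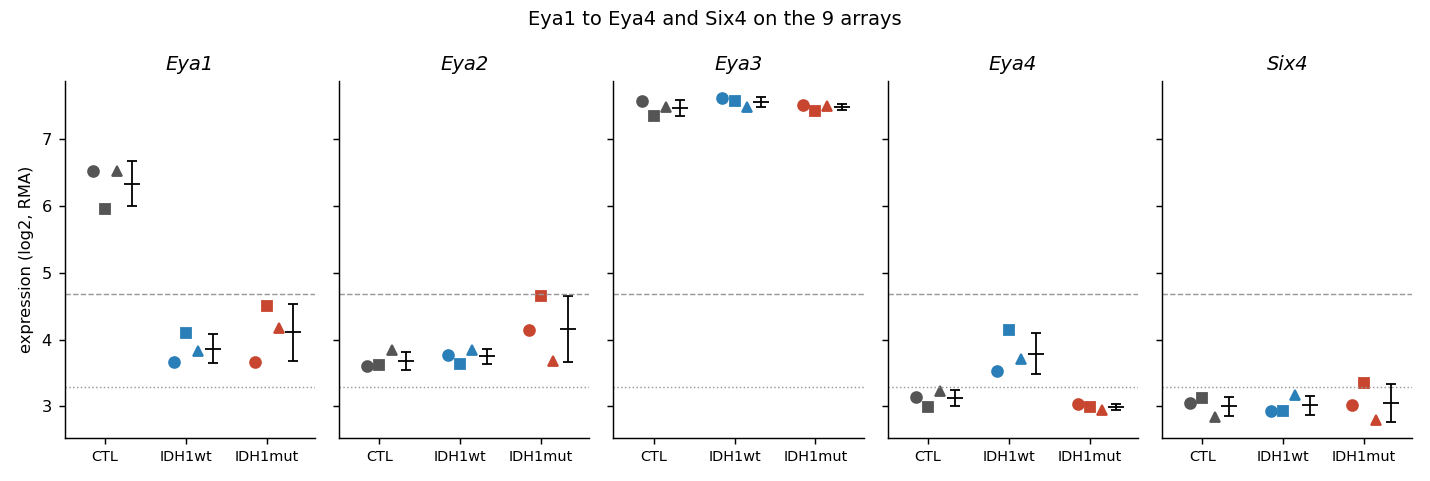
Expression of each member (log2, RMA) on every array by group, with circles, squares and triangles for replicates 1, 2 and 3, a bar for the mean ± SD, and a dashed and a dotted line at the typical array median and lower quartile. Eya1 stands between 5.95 and 6.53 on the CTL arrays and between 3.66 and 4.50 on the others, and Eya4 stands between 3.53 and 4.14 on the IDH1wt arrays and between 2.95 and 3.24 elsewhere.

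The difference of Eya1 was -2.22 ± 0.22 in IDH1mut against CTL, a 4.67-fold lower value, and -2.47 ± 0.22 in IDH1wt against CTL, 5.54-fold lower. Both comparisons use the same 3 CTL arrays. By size of the difference, Eya1 ranked 9 from the bottom of 17731 genes in the first and 3 from the bottom in the second. With any 1 array left out, the difference stayed between -2.42 and -1.997 for IDH1mut and between -2.66 and -2.37 for IDH1wt. The family was chosen by this difference, so its ranks and these ranges describe it and test nothing. Between the 2 IDH1 vectors no difference was called: IDH1mut was higher by 0.25 ± 0.22, with a 95% interval from -0.23 to 0.72 (limma, adjusted p = 0.524). The order of the means was CTL, IDH1mut, IDH1wt, and the last pair did not differ beyond their spread.

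Lactb2, Tram1, Msc and Trpa1 are its nearest measured neighbours on mouse chromosome 1 in the RefSeq table. Their differences ran from -0.20 (Tram1) to 0.11 (Trpa1) in IDH1mut against CTL and from -0.10 (Lactb2) to 0.10 (Trpa1) in IDH1wt against CTL, and 0 of 4 passed limma in any of the 3 comparisons (at an unadjusted p under 0.05, 1 of 4 in IDH1mut against CTL, Tram1, and 0 of 4 in the others). None of the 4 had an adjusted p below 0.139.

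Eya4 was the second member with a difference between groups, and its mean was highest in IDH1wt. It lay below the array medians on all 9 arrays. Mutations of its human counterpart are known from hearing loss and heart muscle disease. It read 3.14, 3.00 and 3.24 on the CTL arrays, 3.53, 4.14 and 3.71 on the IDH1wt arrays, and 3.04, 2.99 and 2.95 on the IDH1mut arrays. The 3 IDH1wt arrays lay above all 6 others, and these 6 lay below the lower quartiles of their arrays. Eya4 rose in IDH1wt against CTL by 0.67 ± 0.14, or 1.59-fold (adjusted p = 0.0332). It was lower in IDH1mut than in IDH1wt by 1.74-fold (-0.80 ± 0.14; adjusted p = 0.00417), and both comparisons share the IDH1wt arrays. In IDH1mut against CTL it was -0.13 ± 0.14, with a 95% interval from -0.44 to 0.18 (adjusted p = 0.581).

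The call against CTL hung on single arrays. It was lost without CTL replicate 1 (adjusted p = 0.111), CTL replicate 2 (0.102), CTL replicate 3 (0.0757), IDH1wt replicate 2 (0.0654) or IDH1wt replicate 3 (0.0807), with differences from 0.49 to 0.72. It was also lost in a fit of the 6 arrays alone (0.0625). The difference between the 2 IDH1 vectors kept its call with each of the 9 arrays left out in turn, at -0.93 to -0.62 and adjusted p up to 0.0183.

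**Figure D2:**
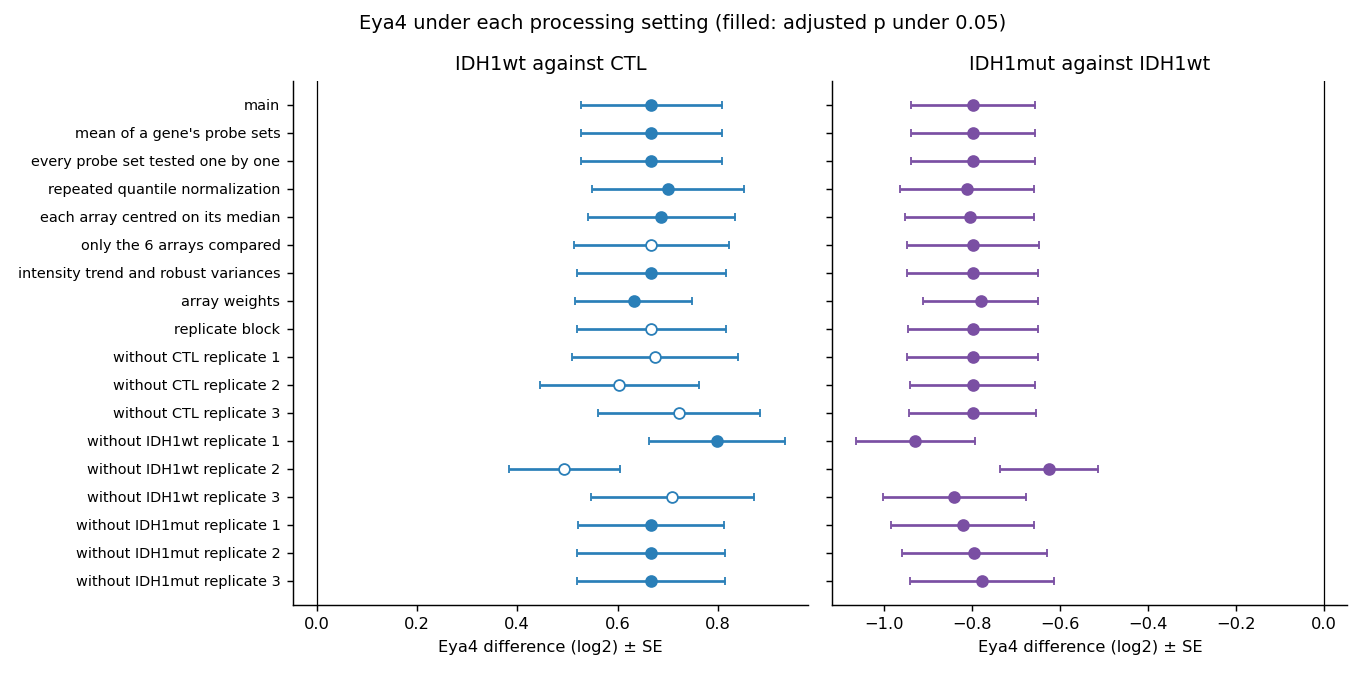
Difference of Eya4 (log2, ± SE) under the main setting and each alternative that gave a value, for IDH1wt against CTL (left) and IDH1mut against IDH1wt (right), filled where the adjusted p is under 0.05. All values lie on 1 side of 0, between 0.49 and 0.80 on the left and between -0.93 and -0.62 on the right, while several on the left are open.

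Eya2 was spread most in IDH1mut. In other tissues it acts in muscle and sense organs. It read 3.60, 3.62 and 3.84 in CTL, 3.77, 3.63 and 3.85 with IDH1wt, and 4.14, 4.65 and 3.68 with IDH1mut. IDH1mut replicates 1 and 2 were above the arrays of both other groups, and replicate 3 was within their range. The difference from CTL was 0.47 ± 0.19 in IDH1mut (adjusted p = 0.115), and it was 0.41 ± 0.19 in IDH1mut against IDH1wt (adjusted p = 0.206), neither past the threshold. Without IDH1mut replicate 3 both passed, at 0.71 (adjusted p = 0.0138) and 0.65 (adjusted p = 0.0286). Without IDH1mut replicate 2 they were smaller, at 0.23 (adjusted p = 0.364) and 0.16 (adjusted p = 0.577). Eya2 lay below the array medians on all 9 arrays. In IDH1wt against CTL the difference was 0.06 ± 0.19, with a 95% interval from -0.36 to 0.49 (adjusted p = 0.905).

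Eya3 gave the steadiest values of the family. It is the member with the broadest known expression. It read 7.57, 7.34 and 7.48 in CTL, 7.62, 7.57 and 7.48 with IDH1wt, and 7.51, 7.42 and 7.50 with IDH1mut, so that all groups overlapped. Its pooled SD within groups was 0.083, a value that 11.3% of genes did not exceed. From CTL, IDH1mut differed by 0.013 ± 0.094 (adjusted p = 0.944) and IDH1wt by 0.09 ± 0.09 (adjusted p = 0.671). Their 95% intervals ran from -0.19 to 0.22 and from -0.11 to 0.30. Between the IDH1 vectors the difference was -0.08 ± 0.09 (adjusted p = 0.659).

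Six4 encodes a homeodomain protein that acts in muscle precursors. It read 3.05, 3.12 and 2.84 in CTL, 2.93, 2.94 and 3.18 with IDH1wt, and 3.02, 3.35 and 2.79 with IDH1mut. Of its 9 values, 8 were below the lower quartile of the array, and the groups overlapped. Its differences were 0.05 ± 0.14, 0.016 ± 0.143 and 0.04 ± 0.14 for IDH1mut and IDH1wt, each against CTL, and for IDH1mut against IDH1wt. The adjusted p-values were 0.845, 0.969 and 0.905, and the 95% intervals ran from -0.26 to 0.37, from -0.30 to 0.33 and from -0.28 to 0.35.

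**Figure D3:**
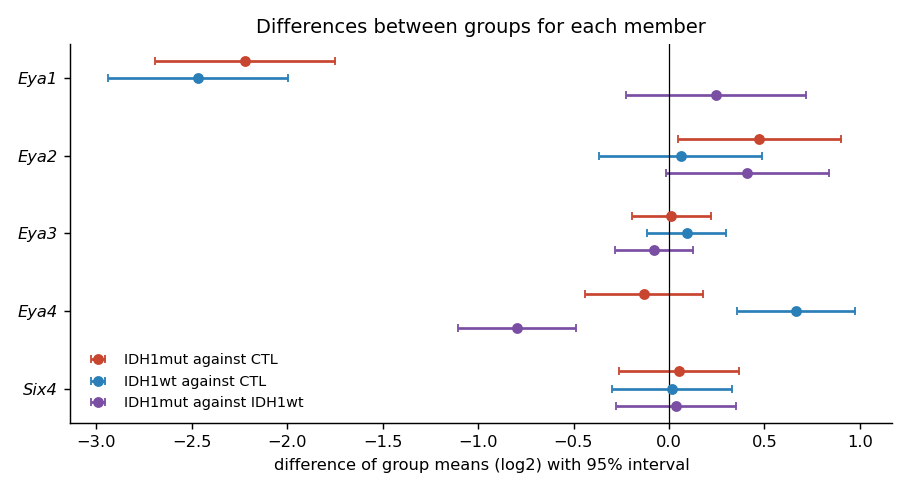
Difference of group means (log2) of each member in the 3 comparisons, with 95% intervals from the limma fit. The Eya1 points against CTL lie at -2.22 and -2.47, the Eya4 points involving IDH1wt at 0.67 and -0.80, and the intervals of Eya3 and Six4 all include 0. The family was chosen by the Eya1 differences against CTL, so their intervals are a description and not a test.

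Counted over the 4 members other than Eya1, 0 passed in IDH1mut against CTL by limma, where 20.7% of all genes did. At an unadjusted p under 0.05 in limma there was 1, Eya2. In IDH1wt against CTL 1 of 4 passed (2.33% of all genes), and in IDH1mut against IDH1wt 1 of 5 members (13.3% of all genes), Eya4 in both. Arrays of Eya4 did not overlap in these 2 comparisons, which held for 23.6% and 29.5% of all genes. Over the 9 arrays Pearson's r of Eya1 with the others ran from -0.35 (Eya4) to -0.06 (Six4).

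The related homeobox genes Six2, Six3, Six5 and Six6 did not pass in any comparison. Their differences lay between -0.14 (Six6, IDH1wt against CTL) and 0.10 (Six6, IDH1mut against IDH1wt). Six5, which lies beside the myotonic dystrophy kinase gene, read 5.06 ± 0.06 in CTL, 5.13 ± 0.20 with IDH1wt and 5.09 ± 0.06 with IDH1mut. The lowest adjusted p of these 4 genes over all comparisons was 0.573.

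Among PAX and DACH factors and cofactors of Six4-type proteins, Pax6 went the way of Eya1. PAX6 is the paired-box regulator of eye development and acts upstream of Eya genes there. It read 4.77, 5.10 and 4.63 in CTL, 3.41, 3.60 and 3.73 with IDH1wt, and 3.27, 3.72 and 3.47 with IDH1mut. The CTL arrays stood above all 6 arrays with IDH1, which lay below the array medians. Pax6 fell 2.54-fold in IDH1mut (-1.34 ± 0.15; adjusted p = 0.000163) and 2.38-fold in IDH1wt (-1.25 ± 0.15; adjusted p = 0.00149), and kept both calls with each array left out. The IDH1 groups differed by -0.09 ± 0.15 (adjusted p = 0.756).

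Of the 20 measured genes on this list, 3 rose and 4 fell in IDH1mut against CTL, where 20.7% of all genes passed, with a median difference of -0.18 against -0.041 over all genes. Skil, which encodes the SKI-like corepressor SnoN, rose by 0.93 ± 0.11, and Tle4, a Groucho-type corepressor gene, by 0.75 ± 0.15. Tle6 fell by 0.55 on the log2 scale (-0.55 ± 0.11) together with Pax6, Dach2 and Tle2, and Tle3 rose. On the same list 1 rose and 1 fell in IDH1wt against CTL, where 2.33% of all genes passed, with a median of -0.066 against -0.037. These were Tle1 (0.46 ± 0.10; adjusted p = 0.0414) and Pax6. The call of Tle1 was lost without any 1 of the CTL or IDH1wt arrays or without IDH1mut replicate 2, at adjusted p from 0.0518 to 0.158, and with repeated quantile normalization (0.0588).

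Between the IDH1 vectors 1 of the 20 rose and 2 fell, a share near the 13.3% of all genes that passed. Skil was higher in IDH1mut by 0.60 ± 0.11, while Tle1 (-0.72 ± 0.10; adjusted p = 0.00137) and Dach2 (-0.70 ± 0.14; adjusted p = 0.00772) were lower. Dach2, a gene for a DACH partner, read 3.93 ± 0.09 in CTL, 4.15 ± 0.15 with IDH1wt and 3.45 ± 0.28 with IDH1mut, below the array medians throughout. Dach1 passed in none of the comparisons (-0.27 ± 0.14 in IDH1mut and -0.44 ± 0.14 in IDH1wt against CTL; adjusted p = 0.211 and 0.134).

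**Figure D4:**
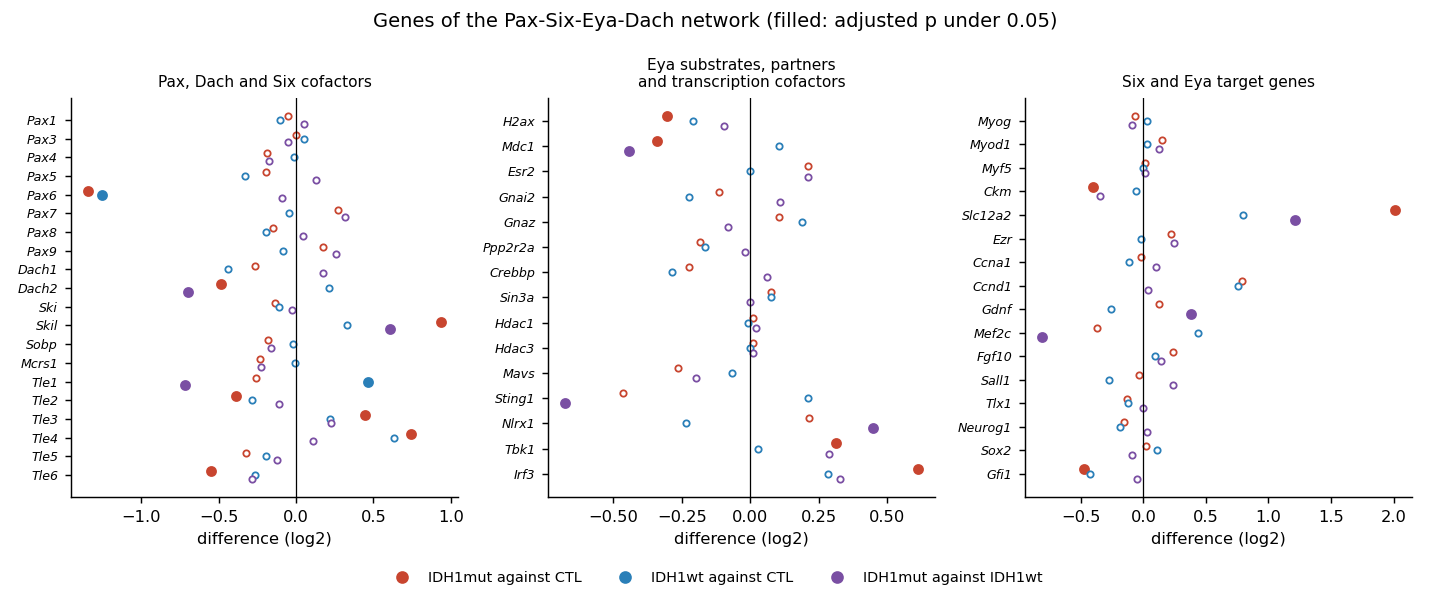
Differences (log2) of the measured genes on 3 lists around the family, 1 row per gene and 1 colour per comparison, with filled points where the adjusted p is under 0.05. Pax6 lies at -1.34 and -1.25 against CTL, and Slc12a2 at 2.01 in IDH1mut against CTL.

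Among 15 measured substrates, partners and transcription cofactors of EYA proteins, 2 rose and 2 fell in IDH1mut against CTL, 0 passed limma in IDH1wt against CTL (2 at an unadjusted p under 0.05), and 1 rose and 2 fell between the vectors. Over all genes 20.7%, 2.33% and 13.3% passed, so the counts are near the background. Medians were 0.011, -0.00022 and 0.010, against -0.041, -0.037 and -0.00011 over all genes. H2ax, whose protein is the DNA damage substrate of EYA phosphatases, was lower by 0.30 in IDH1mut against CTL (-0.30 ± 0.10; adjusted p = 0.0477). This call was lost without any single array other than IDH1wt replicate 1 (adjusted p up to 0.157) and with arrays centred on their medians (0.0762) or the 6 arrays fitted alone (0.0559). Mdc1, whose product binds phosphorylated H2AX, was at -0.34 ± 0.10 (adjusted p = 0.037). Its call was lost without any 1 CTL array or IDH1mut replicate 1 or 2 (up to 0.132).

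Genes of the innate sensing pathway that EYA4 is known to act on were on the same list. Irf3 rose in IDH1mut against CTL by 0.61 ± 0.14 and Tbk1, its kinase, by 0.31 ± 0.09. Sting1, Mavs and Nlrx1 did not pass in this comparison. The means of Sting1 and Mavs were lower in IDH1mut than in CTL (8.27 against 8.73 and 6.92 against 7.19). That of Nlrx1 was higher (8.02 against 7.81). Tbk1 lost its call without any 1 CTL array, IDH1wt replicate 3 or IDH1mut replicate 2 or 3 (adjusted p up to 0.116), in a fit of the 6 arrays alone (0.0588) and with repeated quantile normalization (0.0525). Between the vectors Nlrx1 was higher in IDH1mut (0.45 ± 0.09). Sting1 was lower (-0.68 ± 0.16), without IDH1wt replicate 1 at an adjusted p of 0.0575.

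Of 16 measured genes known as targets of EYA complexes or as downstream of them in organs, 1 rose and 2 fell in IDH1mut against CTL, 0 passed limma in IDH1wt against CTL (6 at an unadjusted p under 0.05), and 2 rose and 1 fell between the vectors. The counts are near the shares of all genes that passed, 20.7% in IDH1mut against CTL and 13.3% between the vectors. In IDH1wt against CTL 2.33% of all genes passed. How many of all genes had an unadjusted p under 0.05 was not counted. The medians of the 16 genes were -0.0041, -0.012 and 0.034. Slc12a2, a sodium, potassium and chloride cotransporter gene, read 5.88 ± 0.26 in CTL, 6.68 ± 0.08 with IDH1wt and 7.89 ± 0.65 with IDH1mut. It rose 4.03-fold in IDH1mut against CTL (2.01 ± 0.25; adjusted p = 0.000353) and was 2.32-fold higher in IDH1mut than in IDH1wt (adjusted p = 0.00989). In IDH1wt against CTL it was 0.80 ± 0.25 (adjusted p = 0.142). Mef2c, a MADS-box factor gene, was lower in IDH1mut than in IDH1wt (-0.81 ± 0.14). The myogenic factor genes Myog, Myod1 and Myf5 passed in none of the comparisons.

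Ckm and Gfi1 fell in IDH1mut against CTL. Both calls hung on single arrays: Ckm lost its call without CTL replicate 1 or 2, IDH1wt replicate 3 or IDH1mut replicate 2 or 3 (adjusted p up to 0.137), and Gfi1 without CTL replicate 1 or 3 or IDH1mut replicate 1 (up to 0.0789). Gdnf, higher in IDH1mut than in IDH1wt by 0.38 ± 0.10, lost its call without IDH1wt replicate 1 or 3 or IDH1mut replicate 1 or 3 (up to 0.0688).

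Eya1 belongs to the genes that MLL-type leukemia keeps on, together with Meis1, Pbx3 and HoxA genes. Of 11 measured genes on that list, 2 rose and 5 fell in IDH1mut against CTL, where 20.7% of all genes passed. By limma 0 of 11 passed in IDH1wt against CTL (1 at an unadjusted p under 0.05), where 2.33% of all genes did. The medians were -0.39 and -0.16, against -0.041 and -0.037 over all genes. Between the vectors 2 rose and 3 fell, where 13.3% of all genes passed, with a median of -0.20 against -0.00011. Mecom, which encodes the zinc finger factor EVI1, rose in IDH1mut by 2.93 ± 0.18. Meis1 rose in IDH1mut (1.10 ± 0.16) and read 3.47 ± 0.15 in CTL and 3.49 ± 0.18 in IDH1wt. Pbx3 (-0.92 ± 0.16) and Sox4 (-0.78) fell in IDH1mut against CTL. Hoxa9 read 3.74 ± 0.20 in CTL, 3.89 ± 0.28 with IDH1wt and 3.35 ± 0.04 with IDH1mut. It was lower in IDH1mut than in IDH1wt (adjusted p = 0.0311), a call lost without IDH1wt replicate 1 or any 1 IDH1mut array (up to 0.088). Hoxa9 read between 3.32 and 4.21 over the 9 arrays, below the array medians. Whether its probe set also reads the HoxA9 construct is not known.

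The genes whose values over the 9 arrays were most like those of Eya1 were sought among 1717 genes with a range of at least 1 on the log2 scale. The highest Pearson's r were those of Pde4d (0.979), Fosb (0.979), Dennd2a (0.973), Lipg (0.964), Ptprg (0.963) and Hspa1a (0.962). Pde4d, a cyclic AMP phosphodiesterase gene, also followed Eya1 within groups, with an r of 0.834 between deviations from the group means. Hspa1a, the inducible HSP70 gene, did not (r = -0.075 within groups). These correlations are descriptions over 9 arrays that share 3 groups. The most and least alike genes were picked by r over these arrays, so their r within groups is a description as well. Pax6 ranked 12 with r = 0.934, and 0.152 within groups.

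Fosb and Hspa1a are immediate early and heat shock genes that are known to respond to handling of cells. Fosb read between 4.99 and 5.82 in CTL, between 2.93 and 3.53 in IDH1wt and between 3.43 and 3.48 in IDH1mut. Hspa1a read between 8.98 and 9.26 in CTL and between 3.88 and 5.06 on the other 6 arrays. The part of handling in the Eya1 difference was not tested.

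The opposite pattern was found in Marcks (r = -0.973), Rnf217 (-0.969), Lrmda (-0.963) and Marchf7 (-0.957). Rnf217, a gene for a RING finger protein, mirrored Eya1 within groups as well (r = -0.966 within groups). It read 6.12 ± 0.29 in CTL, 7.08 ± 0.09 with IDH1wt and 6.87 ± 0.30 with IDH1mut. Over the mean of its probe sets, its difference in IDH1wt against CTL was 0.42 in place of 0.96.

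**Figure D5:**
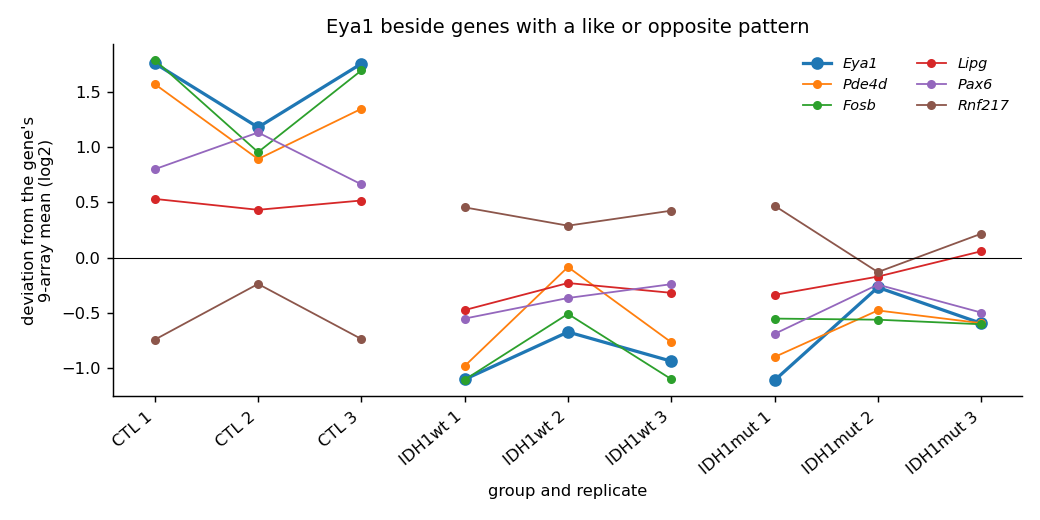
Deviation of Eya1, of 3 of its most alike genes (Pde4d, Fosb, Lipg), of Pax6 and of Rnf217 from each gene's own mean over the 9 arrays (log2), by group and replicate number, with lines that join arrays of a group only to guide the eye. All but Rnf217 are above 0 on the 3 CTL arrays. Eya1, Pde4d, Fosb and Pax6 are below 0 on all 6 arrays with IDH1, and Lipg on all of these but IDH1mut replicate 3.

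Nnt, looked at after the values were seen, ranked 9 among the genes most like Eya1 (r = 0.940, and 0.025 within groups). It encodes the mitochondrial nicotinamide nucleotide transhydrogenase and is known for a deletion that the C57BL/6J substrain carries and C57BL/6N does not. It read between 9.73 and 9.95 in CTL, between 8.69 and 8.79 in IDH1wt and between 8.65 and 9.11 in IDH1mut. The labels give the strain without a substrain, and the part of genetic background in the Eya1 difference was not tested.

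For Eya4 the most alike genes were Acss2 (r = 0.965), Rbm39 (0.956) and Elp4 (0.956). Acss2, which encodes the acetyl-CoA synthetase of cytosol and nucleus, read 5.28 ± 0.03 in CTL, 6.24 ± 0.34 with IDH1wt and 4.88 ± 0.19 with IDH1mut. All 3 followed Eya4 within groups too, with r from 0.794 to 0.919. Eya2 was most like Pabpc1l (0.872), Fam210b (0.864) and Tmem45a2 (0.827). Six4 was most like Scn3a (0.878), Btc (0.770) and Kazn (0.736), and Eya3 like Pde4dip (0.723), Havcr1 (0.686) and Plcb1 (0.671).

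Around all 5 members, 20 neighbouring genes were measured. In IDH1mut against CTL 2 rose and 1 fell, where 20.7% of all genes passed: Vnn3, near Eya4, and Smpdl3b, near Eya3, rose by 1.37 ± 0.16 and 0.90 ± 0.28, and Trp53rka, near Eya2, fell (-0.44 ± 0.10). Vnn3 was also higher in IDH1mut than in IDH1wt (0.93 ± 0.16), the direction opposite to that of Eya4. Zmynd8 and Trmt5 were lower there. Smpdl3b lost its call without IDH1wt replicate 3 or any 1 of the CTL or IDH1mut arrays (adjusted p up to 0.144). The same held for Zmynd8 (up to 0.121) without CTL replicate 3 or any 1 IDH1wt or IDH1mut array, and for Trmt5 (up to 0.161) without any array but IDH1mut replicate 3. In IDH1wt against CTL 0 of the 20 passed limma (7 at an unadjusted p under 0.05), where 2.33% of all genes passed. How many of all genes had an unadjusted p under 0.05 was not counted. The differences of the 20 ran from -0.33 to 0.77.

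Bulk arrays cannot tell fewer cells of a type from less RNA per cell. Skeletal muscle, where Eya genes and Six4 are known to act, gave 16 measured markers whose summed linear signal was 252 to 262 in CTL, 266 to 278 in IDH1wt and 249 to 305 in IDH1mut. The mean of 8 of the 16 lay below the lower quartile, and 1 rose and 1 fell in IDH1mut against CTL, where 20.7% of all genes passed. The summed signal of 15 stromal and endothelial markers was 514.5 to 539 in CTL, 513 to 544 in IDH1wt and 401 to 479.5 in IDH1mut, with 5 means below the lower quartile. The muscle sum was higher on the IDH1wt arrays than on the CTL arrays without overlap, and its range in IDH1mut overlapped that in CTL. The stromal sum overlapped between IDH1wt and CTL, and was lower on the IDH1mut arrays than on the CTL arrays without overlap. The cells had been sorted for GFP, and how many untransduced cells the sort left was not measured. The part of muscle, stromal and endothelial cells in the Eya1 values was not tested.

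Of 7 measured erythroid markers, 7 rose in IDH1mut against CTL. By limma 0 passed in IDH1wt against CTL (3 at an unadjusted p under 0.05). Between the IDH1 vectors 0 passed limma as well (6 at an unadjusted p under 0.05). Over all genes 20.7%, 2.33% and 13.3% passed in these 3 comparisons. The summed signal of the erythroid markers was 863 to 1023 in CTL, 745 to 2722 in IDH1wt and 2525 to 3091 in IDH1mut. For 9 B cell markers it was 768 to 1795, 416 to 1005 and 1320 to 3575, and for 8 T and NK cell markers 261 to 285, 216 to 255 and 302 to 395. The 11 neutrophil and precursor markers summed to 107400 to 108600 in CTL, 105200 to 106900 in IDH1wt and 102600 to 103300 in IDH1mut. Within this list 3 rose and 4 fell in IDH1mut against CTL, where 20.7% of all genes passed. In IDH1wt against CTL 0 passed limma (2 at an unadjusted p under 0.05), where 2.33% of all genes did. Elane and Ctsg, granule proteases of early precursors, fell in IDH1mut against CTL (-1.14 ± 0.11 and -0.95 ± 0.11), and Ltf and Csf3r, a late granule protein gene and the G-CSF receptor gene, rose (0.70 ± 0.09 and 0.78 ± 0.12). Camp, Ngp, S100a8 and S100a9, on the same list, moved less. They read 13.97, 14.01, 13.92 and 14.12 in CTL and 14.06, 14.05, 13.97 and 14.15 in IDH1mut, close to the array maxima. All the genes named from this list were picked after their values were seen. Of the 10 white blood cell markers, 5 rose and 1 fell in IDH1mut against CTL, where 20.7% of all genes passed. The sum of these markers was 15260 to 16040 in CTL, 15810 to 16340 in IDH1wt and 19250 to 20640 in IDH1mut. The part of these cell types in the values of Eya1 and Eya4 was not tested.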

How the data were processed

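Total RNA (3 µg per sample) was hybridised to Affymetrix mouse arrays, 9 in all. The deposited log2 values, 1 per probe set, had been made by the authors with RMA, per the submitters' processing notes, with no version given. The table held 20877 probe sets, of which 17815 had 1 gene symbol in the platform annotation, 244 several and 2818 none; the last 2 kinds were left out. For each of 17731 genes the probe set with the highest mean was kept. limma 3.58.1 (R 4.3.3; lmFit, eBayes, two-sided) modelled the 3 group means over the 9 arrays. The procedure was tested on simulated data.

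The members, the lists and the letters searched were chosen with earlier results of these data known, those of MEIS and HOX after the values were seen. Named genes were the members, 6 most and 4 least like Eya1, 3 most like each other member, 2 neighbours on each side, and up to 4 passing genes per list and comparison. Further ones (Tle2, Tle3, Elane, Ctsg, Ltf, Csf3r, Camp, Ngp, S100a8, S100a9, Six2, Six3, Six5, Six6, Dach1, myogenic factors, Nnt, Pax6 in the likeness) were chosen after their values were seen. Mavs was also named after its values were seen. Gene identifiers of 17584 genes matched RefSeq (GRCm38.p6). Sequences are RefSeq's. Same-numbered replicates did not deviate together (r from -0.086 to 0.026). Alternatives numbered 18: probe set rule, dim genes, scaling, arrays fitted, spread model, array weights, replicate block and each array left out. Array number limits the precision.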

Additional observations from a re-analysis of the deposited data

How the results depend on the processing

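Eya1 kept its direction against CTL under all 17 alternatives that gave it a value. Restricting the test to genes at or above the median gene left Eya3 alone among the members, so that 0 members passed in each comparison. The counts of members that follow include Eya1, whose values against CTL chose the family, so only the other members bear on them. With array weights the count in IDH1mut against CTL was 2, with Eya2 added (adjusted p = 0.0342). In IDH1wt against CTL the count was 1 in place of 2, through the loss of Eya4, in a fit of the 6 arrays alone (adjusted p = 0.0625) and with the replicate block (adjusted p = 0.0616); the replicate numbers are not known to pair the arrays, and the replicate block changed no other call of a member. Among the other named genes it ended the calls of Tbk1 and H2ax in IDH1mut against CTL (adjusted p = 0.0507 and 0.0723), of Tle1 in IDH1wt against CTL (0.0692), and of Zmynd8, Rbm39 and Trmt5 in IDH1mut against IDH1wt (0.0559, 0.0665 and 0.0743). Leaving out 1 array gave 1 to 2 members in each of the 3 comparisons. Over all genes, leaving out 1 array gave 2370 to 3805 calls in IDH1mut against CTL (3663 with all; 2370 without CTL replicate 1), 132 to 570 in IDH1wt against CTL (414 with all), and 1475 to 2193 in IDH1mut against IDH1wt (2363 with all). The IDH1wt count was 1226 with array weights and 717 when robust variances followed an intensity trend. Signs near 0 were not stable: Eya3 in IDH1mut against CTL was -0.036 with array weights and -0.049 to 0.065 with 1 array left out. Six4 ran from -0.095 to 0.19, from -0.067 to 0.076 and from -0.11 to 0.17 in the 3 comparisons with 1 array left out. The causes were not tested. Of 258 values of members under the alternatives, 238 kept direction and side of the threshold, 7 lost a call, 3 gained one and 10 changed sign. Values below the array medians, those of Eya1 with IDH1, Eya2, Eya4 and Six4, are limited by signal over background.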
